A study of Mus musculus with 8 samples.

Results

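The genes of the DREAM complex and its pocket proteins were followed in mouse mammary basal cells, which form the outer layer of the milk duct epithelium. The 10 members were chosen by name: the pocket protein genes Rbl1 and Rbl2, the E2F genes E2f4 and E2f5, the MuvB core genes Lin9, Lin37, Lin52, Lin54 and Rbbp4, and the kinase gene Dyrk1a. All 10 were found among the 54837 gene identifiers of the count table, and all 10 were among the 15192 genes with enough counts to be tested. The libraries were made from untreated mice of a strain labelled C57BL/B6, sorted into G1, the growth phase before DNA synthesis, and G0, in which cells rest outside the cycle. Each of 4 runs gave 1 G1 and 1 G0 library, so each phase had 4. The sources used here give neither the age and number of the animals nor the stains that defined the gates. In bulk libraries such as these, fewer cells of a type and less RNA per cell cannot be told apart.

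The DREAM complex holds cell cycle genes silent in resting cells. One pocket protein, RBL2 (also called p130) or RBL1 (p107), joins E2F4 or E2F5 with a DP partner and the MuvB core, and together they sit on promoters through E2F sites and through the cell cycle genes homology region, or CHR, which LIN54 reads. Phosphorylation of LIN52 by DYRK1A favours assembly. Cyclin-dependent kinases phosphorylate the pocket proteins and release them, after which MuvB can join B-MYB and FOXM1 to activate mitotic genes. Much of this control acts on proteins, which RNA counts do not report.

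Promoters of 3 genes are shown to make these elements visible, Rbl1 and Rbl2 as the pair of pocket protein genes and Cdk1, the mitotic kinase gene, as a known target with both kinds of element. Cdk1 was picked after its values were seen. Each sequence is the 250 bases before the gene's start, 5′ to 3′ on the gene's own strand, from RefSeq on GRCm38.p6, with matches in capitals. The E2F sites searched were TTTCCCGC, TTTCGCGC, TTTGCCGC and TTTGGCGC, and the CHR letters were TTTGAA and TTCGAA, on both strands. No match of one kind shared bases with a match of the other.
Rbl1 promoter, chr2:157204535-157204784, minus strand: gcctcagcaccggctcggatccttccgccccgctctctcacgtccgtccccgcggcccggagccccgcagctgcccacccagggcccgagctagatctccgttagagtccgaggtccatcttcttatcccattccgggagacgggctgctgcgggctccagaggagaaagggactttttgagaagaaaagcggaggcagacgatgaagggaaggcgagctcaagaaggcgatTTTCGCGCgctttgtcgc
Rbl2 promoter, chr8:91069807-91070056, plus strand: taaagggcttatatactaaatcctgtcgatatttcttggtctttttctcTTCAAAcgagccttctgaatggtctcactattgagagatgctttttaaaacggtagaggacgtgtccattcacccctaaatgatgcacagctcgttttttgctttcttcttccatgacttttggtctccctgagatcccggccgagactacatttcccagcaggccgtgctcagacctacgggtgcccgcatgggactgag
Cdk1 promoter, chr10:69352913-69353162, minus strand: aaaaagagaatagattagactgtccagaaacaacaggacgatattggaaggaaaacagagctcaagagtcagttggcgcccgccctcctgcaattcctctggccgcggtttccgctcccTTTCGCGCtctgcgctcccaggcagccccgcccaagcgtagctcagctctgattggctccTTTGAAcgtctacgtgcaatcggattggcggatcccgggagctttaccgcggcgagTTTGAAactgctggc

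The Rbl1 window held an E2F site that begins 18 bases before the start, and the Rbl2 window held no E2F site but a CHR on the opposite strand, printed as TTCAAA. The Cdk1 window held an E2F site and 2 CHR matches. RefSeq windows matched 7 of the 10 members: those 2, Lin37, Lin52, Lin54, Rbbp4 and Dyrk1a, with no entry used for E2f4, E2f5 or Lin9. Among these 7 genes' 10 windows, E2F sites stood in 2 (20%), those of Rbl1 and Lin52, against 1.86% of all 32851 windows. CHR letters stood in 4 of the 10 windows (40%), those of Rbl2, Lin37 and 1 window each of Lin54 and Dyrk1a, against 17.1% of all windows. For known targets, E2F sites stood in 26.7% of the 30 windows of the G1/S group and 3.03% of the 33 windows of the G2/M group, and CHR letters in 10% and 39.4%. A match is a run of letters and not a measured binding site. The Rbl1 window was 63.6% G and C and the Rbl2 window 46.8%, against a median of 52.4% over all windows.

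Total counts ranged from 6807090 to 13711195 in G1 libraries and from 5868728 to 15014104 in G0 libraries. The G0 library of run 4 stood apart: 39094 genes had at least 1 count there, against 20836 to 26614 in the other 7 libraries, and 8.13% of its counts fell on the predicted gene Gm10800. Levels are given in CPM, a gene's counts relative to its library total, scaled between libraries with TMM factors, the edgeR package's correction for RNA composition. The 8 basal markers fixed for the check, such as Krt5, Krt14 and Acta2, summed to 28473 to 32551 CPM in G1 and 20926 to 27432 CPM in G0, and none was at 0 in any library. Their sum was higher in G1 in all 4 runs. Acta2 averaged 12213 CPM in G1 and 7926 CPM in G0, while Krt14 averaged 8270 and 7999 CPM and Krt5 1857 and 1829 CPM. The 7 luminal progenitor markers summed to 1136 to 1895 CPM in G1 and 1000 to 2115 CPM in G0, higher in G1 in 3 of 4 runs. All 8 endothelial markers were measured, and their sum was 18.8 to 86.0 CPM in G1 against 118.7 to 221.6 CPM in G0, lower in G1 in all 4 runs. The 6 adipocyte markers summed to 46.9 to 254.6 CPM in G1 and 283.3 to 542.4 CPM in G0, again lower in G1 in all 4 runs. Of these 6, 2 were at 0 in at least 1 library, and 4 had enough counts to be tested. The 7 markers of hormone-sensing luminal cells, such as Esr1 and Ly6a, also had a lower sum in G1 in all 4 runs. Their sums overlapped at 42.7 to 110.8 CPM in G1 and 54.0 to 199.1 CPM in G0. Ly6a had the highest mean of the 7, 36.5 CPM in G1 and 59.9 CPM in G0. It was the only gene of the 7 lower in G1 in all 4 runs. Esr1 averaged 9.36 CPM in G1 and 14.2 CPM in G0 and was lower in G1 in 3 of 4 runs. The 7 fibroblast markers summed to 242.3 to 603.2 CPM in G1 and 206.9 to 883.8 CPM in G0, higher in G1 in 3 of 4 runs. Of these 7, 6 had a negative log2 fold change, G1 over G0, in the edgeR fit without the run. Dcn had a positive one and averaged 255.3 CPM in G1 and 177.9 CPM in G0. The part of these other cells in the results below was not tested.

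Lin9 was lower in every G1 library than in every G0 library, at 3.72 ± 0.38 CPM in G1 and 7.13 ± 1.88 CPM in G0 (SD, n = 4 each). The libraries of the other 9 members overlapped between the phases, with fitted log2 differences between -0.19 and 0.15. None of the 10 passed the test. EdgeR's quasi-likelihood test with the phase as its only term called 0 of 10 members at a Benjamini-Hochberg adjusted p of 0.05, and 0% of all 15192 genes, with 156 genes higher and 269 lower in G1 at an unadjusted p under 0.05. With the run as a replicate block it called 0 of 10 members and 1.24% of all genes. The members' median log2 fold change, G1 over G0, was 0.03, against -0.00067 over all tested genes. Values below are from the fit without the run unless the block is named, with the standard error after ±. In that fit the adjusted p over all tested genes was 0.9999 for each of the 10 members. Its errors leave the pairing of libraries by run unused and include differences between runs. With the replicate block each error was smaller: 0.33 for Rbl1, 0.15 for Rbl2, 0.12 for E2f4, 0.13 for E2f5 and 0.28 for Lin9. It was 0.18 for Lin37, 0.27 for Lin52, 0.20 for Lin54, 0.14 for Rbbp4 and 0.13 for Dyrk1a. The blocked adjusted p ran from 0.123 for Lin9 to 0.983 for Rbl1 (edgeR's quasi-likelihood test).

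**Figure D1:**
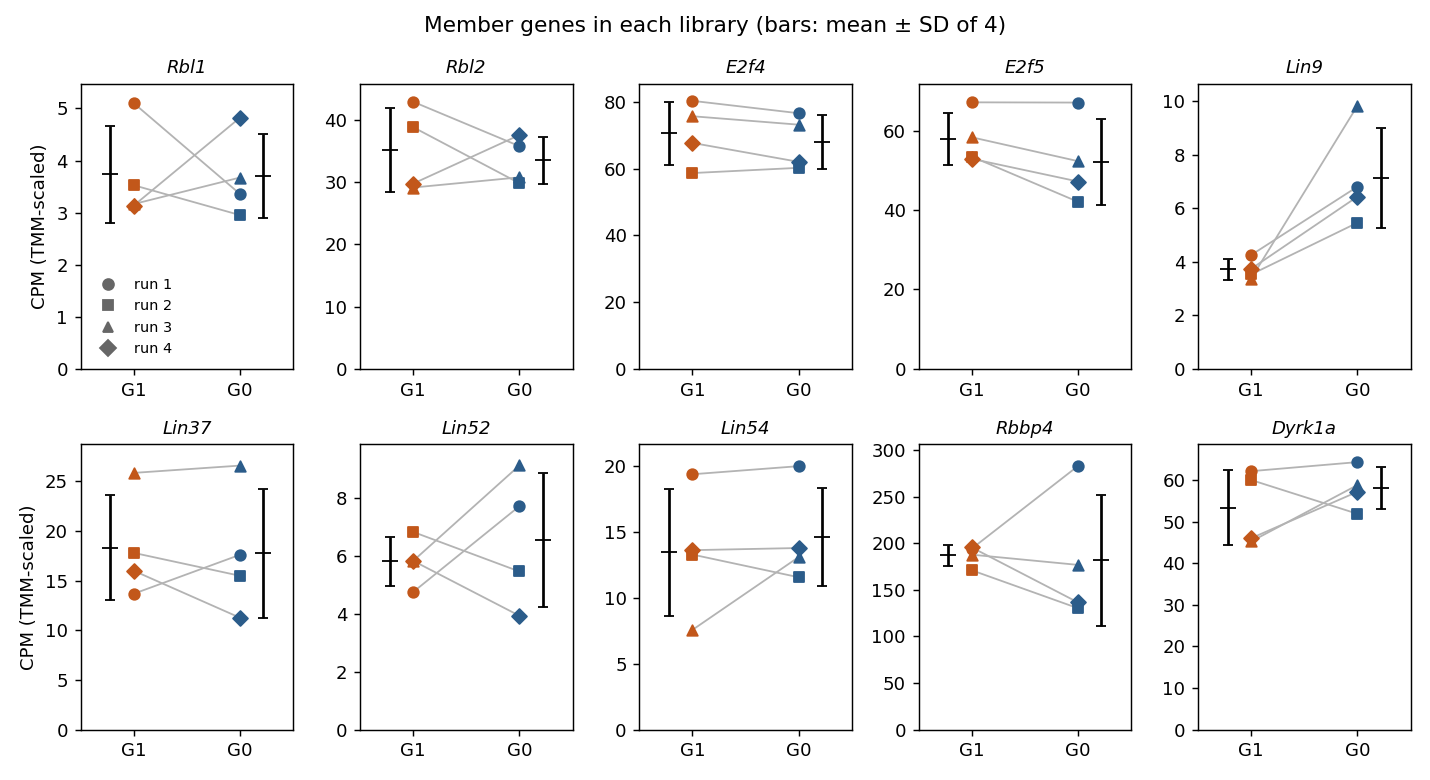
Level of each member in CPM on a linear axis from 0, with G1 left and G0 right in each panel, 1 point per library, shapes for runs 1 to 4, grey lines joining libraries of 1 run and black bars for the mean ± SD of 4. Lin9 is the member whose G1 points (3.37 to 4.25 CPM) all lie below its G0 points (5.46 to 9.82 CPM).

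Rbl1 (ENSMUSG00000027641, chromosome 2 from 157145893 to 157204534, minus strand, GRCm38), which encodes the pocket protein p107, was among the lowest members per length, with Lin9. Its level was 5.10, 3.53, 3.17 and 3.14 CPM in the G1 libraries of runs 1 to 4, against 3.36, 2.95, 3.67 and 4.82 CPM in the G0 libraries. These values rest on 21 to 72 counts in G1 and 27 to 52 in G0. The groups overlapped throughout, with G1 above G0 in runs 1 and 2 and below it in runs 3 and 4. The means were 3.73 ± 0.93 CPM in G1 and 3.70 ± 0.80 CPM in G0 (SD, n = 4 each), and the log2 fold change was 0.03 ± 0.34 with a 95% interval of -0.72 to 0.77.

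Rbl2 (ENSMUSG00000031666, chromosome 8 from 91070057 to 91123844, plus strand), which encodes p130, the pocket protein best known from resting cells, was the more abundant of the pair. Its level was 42.9, 38.8, 29.1 and 29.7 CPM in G1 libraries of runs 1 to 4, against 35.7, 29.8, 30.7 and 37.5 CPM in G0 libraries. The runs divided as for Rbl1, with G1 higher in runs 1 and 2 and lower in runs 3 and 4. The log2 fold change was 0.07 ± 0.19 (95% interval -0.34 to 0.48). Of the exon bases of Rbl2, 9.17% lie under exons of Aktip and 11.8% under Gm45464, both on the opposite strand, and the sources used here do not say whether strand was used in counting. Aktip stood at 18.8 to 29.1 CPM in G1 libraries and 17.3 to 30.4 CPM in G0 libraries.

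E2f4 (ENSMUSG00000014859, chromosome 8 from 105297663 to 105305370, plus strand) encodes the E2F that carries most pocket protein complexes of resting cells. Its level was 80.3, 58.6, 75.7 and 67.7 CPM in G1 libraries of runs 1 to 4, against 76.6, 60.2, 73.1 and 62.0 CPM in G0 libraries. Libraries of 1 run lay close together, with log2 ratios from -0.04 to 0.13, while the runs differed more among themselves. The log2 fold change was 0.05 ± 0.17 (95% interval -0.31 to 0.41), and with the replicate block the interval was -0.20 to 0.30.

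E2f5 (ENSMUSG00000027552, chromosome 3 from 14578641 to 14606309, plus strand) encodes the related repressor E2F. Its level was 67.1, 53.4, 58.3 and 52.9 CPM in G1 libraries of runs 1 to 4, against 67.0, 42.1, 52.3 and 47.2 CPM in G0 libraries. It was higher in G1 in all 4 runs, by 0.0013 to 0.34 on the log2 scale, though the groups overlapped. The log2 fold change was 0.15 ± 0.18 (95% interval -0.25 to 0.55). The same sign in all 4 runs was seen for 2 of 10 members, E2f5 and Lin9, and for 20.8% of all tested genes.

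Lin9 (ENSMUSG00000058729, chromosome 1 from 180641150 to 180690694, plus strand) encodes a scaffold subunit of MuvB that is also needed to activate mitotic genes with B-MYB. Its level was 4.25, 3.53, 3.37 and 3.73 CPM in the G1 libraries of runs 1 to 4, against 6.80, 5.46, 9.82 and 6.43 CPM in the G0 libraries. These come from 60, 46, 33 and 25 counts in G1 and 75, 61, 139 and 36 counts in G0. Each G1 library was below each G0 library, and the G0 library of run 3 was the highest of the 8. Its log2 fold change was -0.94 ± 0.30 (95% interval -1.59 to -0.28), with an unadjusted p of 0.0089 from edgeR's quasi-likelihood test, and it did not pass the adjusted threshold.

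The replicate block gave Lin9 a log2 fold change of -0.91 ± 0.28 with an adjusted p of 0.123 from edgeR's quasi-likelihood test, and over the settings tried its adjusted p ranged from 0.123 to 0.99999. Within runs 1 to 4 the log2 ratios were -0.66, -0.60, -1.49 and -0.76. With any 1 library left out the fold change lay between -1.04 and -0.74, and the value of -0.74 was that without the G0 library of run 3. Groups that do not overlap were seen for 1 of 10 members, and for 2% of all tested genes, 1.17% with G1 lower. The endothelial marker sum, 18.8 to 86.0 CPM in G1 against 118.7 to 221.6 CPM in G0, also did not overlap between the phases, and all 8 of its genes had a negative fold change. With the replicate block, 8 of 8 endothelial, 4 of 7 fibroblast, 2 of 4 tested adipocyte and 1 of 7 hormone-sensing luminal markers were called lower in G1. The hormone-sensing luminal marker called was Ly6a, while Esr1, Pgr, Prlr and Foxa1 were not called. The part of any of these cell types in the Lin9 difference was not tested.

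**Figure D2:**
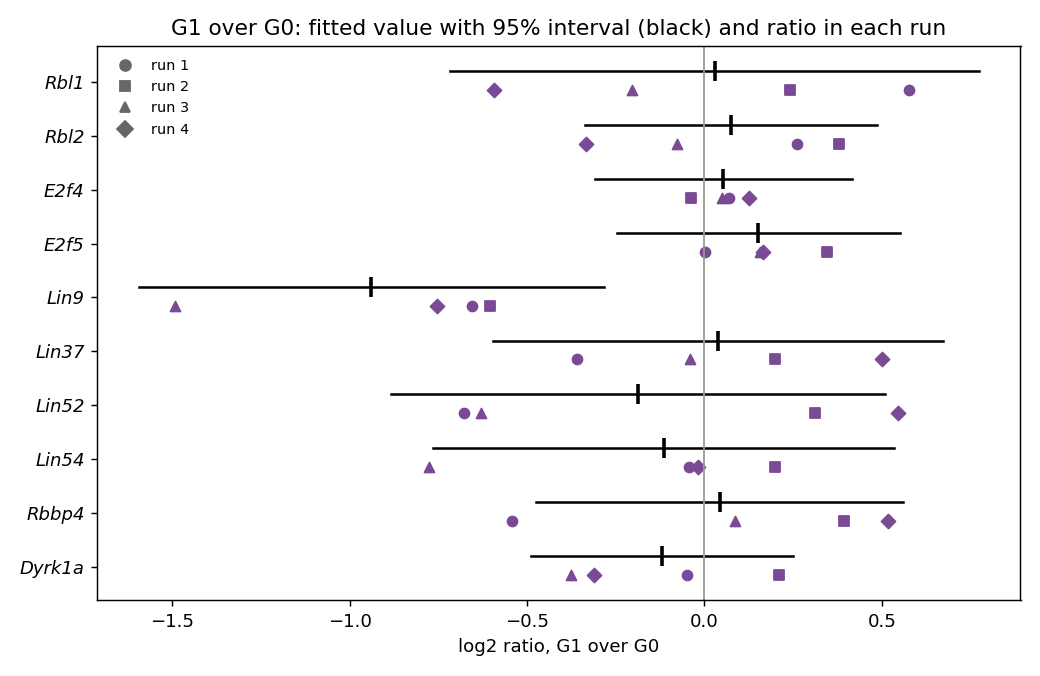
Log2 ratio of G1 over G0 for each member, with the fitted value and its 95% interval from the model without the run in black above and the ratio within each of runs 1 to 4 as shaped points below. The interval of Lin9 runs from -1.59 to -0.28, and the intervals of the other 9 members include 0.

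None of the other MuvB subunits was lower in G1 in all 4 runs, as Lin9 was. Lin37 (ENSMUSG00000036845, chromosome 7 from 30555441 to 30559838, minus strand) encodes the subunit needed for repression by DREAM in mouse cells. Its level was 13.7, 17.8, 25.8 and 16.0 CPM in G1 libraries of runs 1 to 4, against 17.6, 15.5, 26.6 and 11.3 CPM in G0 libraries. Both libraries of run 3 were the highest of their phase, and the log2 fold change was 0.04 ± 0.29 (95% interval -0.59 to 0.67).

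Lin52 (ENSMUSG00000085793, chromosome 12 from 84451422 to 84546145, plus strand) encodes the small subunit that DYRK1A phosphorylates and that contacts the pocket protein. Its level was 4.75, 6.82, 5.82 and 5.83 CPM in G1 libraries of runs 1 to 4, against 7.71, 5.46, 9.12 and 3.93 CPM in G0 libraries. The G1 libraries fell inside the range of the G0 libraries, with G1 lower in runs 1 and 3 and higher in runs 2 and 4. The fitted log2 fold change was -0.19 ± 0.32 (95% interval -0.88 to 0.51) on 39 to 89 counts in G1 and 22 to 129 in G0.

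Lin54 (ENSMUSG00000035310, chromosome 5 from 100441918 to 100500639, minus strand) encodes the DNA-binding subunit that recognises the CHR. Its level was 19.3, 13.3, 7.56 and 13.6 CPM in G1 libraries of runs 1 to 4, against 20.0, 11.5, 13.1 and 13.8 CPM in G0 libraries. Apart from run 3, where the G1 library was the lowest of the 8, the phases stood within 0.20 of each other on the log2 scale. G1 was lower in 3 of 4 runs, and the log2 fold change was -0.12 ± 0.30 (95% interval -0.77 to 0.54).

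Rbbp4 (ENSMUSG00000057236, chromosome 4 from 129307100 to 129335370, minus strand) encodes a histone-binding protein that MuvB shares with other chromatin complexes. Its level was 194.2, 171.0, 187.8 and 195.5 CPM in G1 libraries of runs 1 to 4, against 282.9, 130.3, 176.8 and 136.5 CPM in G0 libraries. The G1 libraries were close together (SD 11.3 CPM), while the G0 libraries were spread (SD 70.6 CPM), with the highest and the lowest of the 8 both in G0. A log2 fold change of 0.04 ± 0.24 was fitted (95% interval -0.48 to 0.56). Without the G0 library of run 1 it was 0.35, and without the G0 library of run 2 it was -0.08, and neither passed. Of the exon bases of Rbbp4, 9.10% lie under Gm26722 and 8.94% under Sync, both on the opposite strand. Gm26722 stood at 48.1 to 68.0 CPM in G1 libraries and 23.3 to 73.3 CPM in G0 libraries.

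Dyrk1a (ENSMUSG00000022897, chromosome 16 from 94570010 to 94695517, plus strand) encodes the kinase that phosphorylates LIN52. Its level was 62.1, 60.0, 45.2 and 46.0 CPM in G1 libraries of runs 1 to 4, against 64.3, 51.9, 58.8 and 57.2 CPM in G0 libraries. G1 was lower in 3 of 4 runs and the groups overlapped. Its log2 fold change was -0.12 ± 0.17 (95% interval -0.49 to 0.25).

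Levels of different genes were compared per length, as CPM per kb of the gene's joined exons, averaged over all 8 libraries. E2f5 led at 30.9 ± 4.95, followed by E2f4 at 28.3 ± 3.38 and Rbbp4 at 21.1 ± 5.36 CPM per kb (SD, n = 8). The ranges of each neighbouring pair among these 3 overlapped. Lin37 came next at 13.0 ± 3.94, then Dyrk1a at 6.75 ± 0.87 and Rbl2 at 4.54 ± 0.68 CPM per kb. The ranges of Lin37 and Dyrk1a did not overlap, nor did those of Rbl2 and the next gene, Lin54. The low end held Lin54 at 2.41 ± 0.69, Lin52 at 1.99 ± 0.53, Lin9 at 0.75 ± 0.31 and Rbl1 at 0.62 ± 0.13 CPM per kb. The order of Lin9 and Rbl1 differed between the phases, on few counts and with neither gene called. In G1 Lin9 was below Rbl1 in 4 of 4 libraries, with means of 0.514 ± 0.053 and 0.623 ± 0.155 CPM per kb, though their ranges overlapped (SD, n = 4). Counts in the G1 libraries of runs 1 to 4 were 60, 46, 33 and 25 for Lin9 and 72, 46, 31 and 21 for Rbl1. In runs 2 to 4 the order in G1 thus came from the longer exons of Lin9 (7244 against 5993 bases). In G0 Lin9 was above Rbl1 in 4 of 4 libraries, with means of 0.984 ± 0.260 and 0.618 ± 0.134 CPM per kb (SD, n = 4). Within the MuvB core, subunits of 1 complex thus had RNA levels from 0.75 for Lin9 to 21.1 CPM per kb for Rbbp4, and Rbbp4 also serves other complexes.

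**Figure D3:**
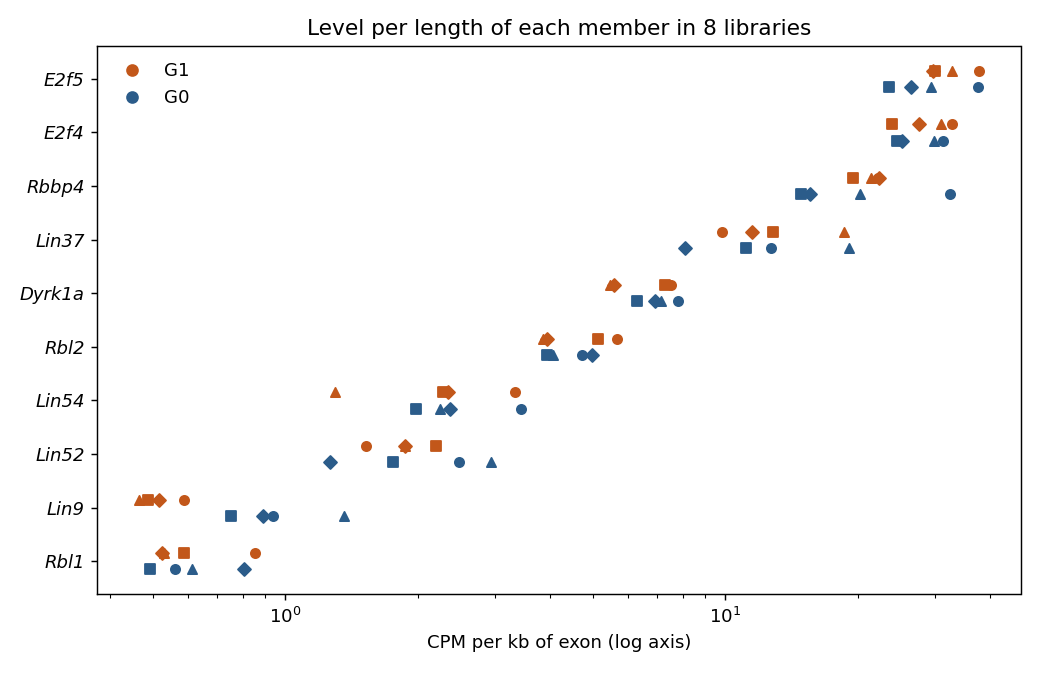
Level of each member per length, in CPM per kb of exon on a log axis, with members ordered by their mean over 8 libraries, G1 points above G0 points and shapes for runs 1 (circle), 2 (square), 3 (triangle) and 4 (diamond). E2f5 and E2f4 lie at the top, between 23.6 and 37.7, and Lin9 and Rbl1 at the bottom, with Lin9 below Rbl1 in the G1 libraries and above it in the G0 libraries of each run. In G1 these 2 genes had 21 to 72 counts per library.

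Ratios between related subunits within a library do not depend on library scaling, and 4 were compared as (count + 0.5) per kb. The ratio Rbl1/Rbl2 was 0.151, 0.116, 0.139 and 0.136 in the G1 libraries of runs 1 to 4, against 0.120, 0.127, 0.152 and 0.165 in the G0 libraries. In all 8 libraries Rbl2 was therefore the more abundant pocket protein RNA of this pair. The difference of the log2 ratio, G1 minus G0, was -0.05 (exact permutation test, two-sided, p = 0.714, adjusted over the 4 ratios 0.914), with G1 higher in 1 of 4 runs. The smallest p that 4 against 4 libraries allow is 0.0286.

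The ratio E2f4/E2f5 was 0.869, 0.798, 0.943 and 0.930 in G1 libraries of runs 1 to 4, against 0.830, 1.04, 1.02 and 0.955 in G0 libraries. It lay near 1 in both phases and was lower in G1 in 3 of 4 runs (difference in log2 ratio -0.12, exact permutation p = 0.257, adjusted 0.914). Rb1, the retinoblastoma gene and the third pocket protein gene, is no part of DREAM. The ratio Rb1/Rbl2 was 0.981 to 1.34 in G1 libraries and 0.988 to 1.34 in G0 libraries (difference -0.07, exact permutation p = 0.657, adjusted 0.914). Rb1 and Rbl2 thus stood at similar levels per length in both phases. The ratio of Rbbp4 to its close relative Rbbp7 was 0.160 to 0.199 in G1 libraries and 0.144 to 0.300 in G0 libraries (difference -0.05, exact permutation p = 0.914, adjusted 0.914), the highest value being that of the G0 library of run 1.

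**Figure D4:**
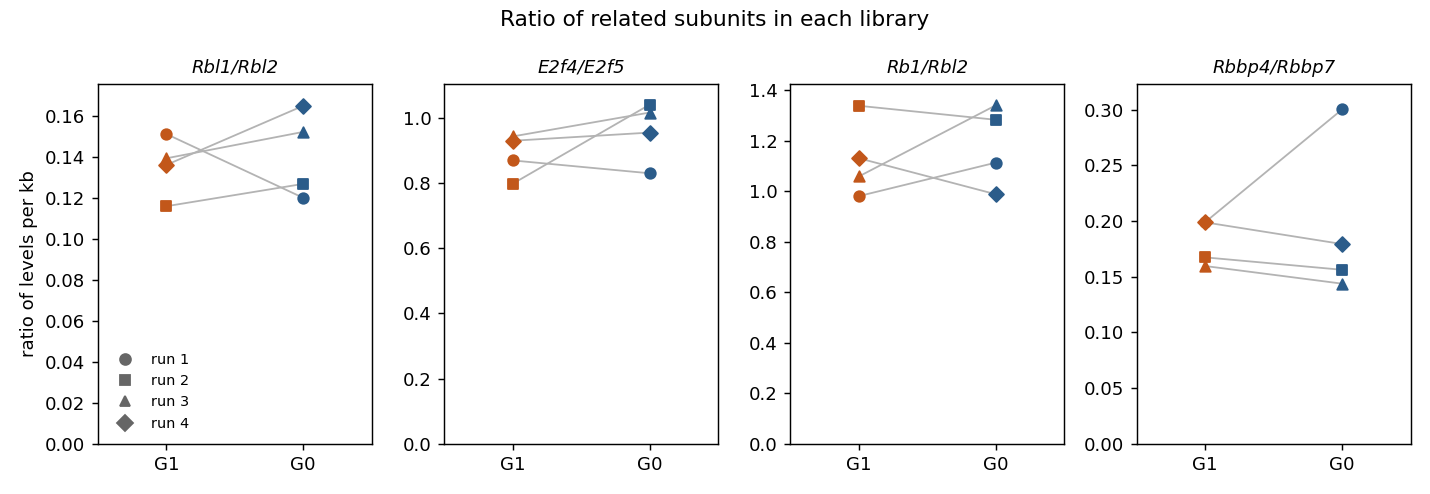
Ratio of levels per kb for 4 pairs of related subunits, on linear axes from 0, with G1 left and G0 right, 1 point per library, shapes for runs 1 to 4 and grey lines joining libraries of 1 run. Rbl1/Rbl2 stays between 0.116 and 0.165 in all 8 libraries, and the phases overlap in each panel.

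The 3 genes whose profile over the 8 libraries was nearest to a member's were found by the root mean square difference of log2 CPM, each gene centred on its own mean. For Rbl1, 9382 genes were compared. The nearest were Nvl at 0.093, Mib1 at 0.102 and Rhou at 0.113, where the median gene stood at 0.387. For Rbl2 they were Dis3 at 0.073, Nfib at 0.075 and Csnk1a1 at 0.078, with a median of 0.331. For E2f4 they were Insig2 at 0.059, Prelid3b at 0.0756 and Zmat2 at 0.0757, with a median of 0.320. Rbl2 and E2f4 were each compared with 9381 genes. The smallest of so many distances lie below the median through selection alone. They therefore do not show that these genes vary together. The profile of Rbl1 also rests on only 21 to 72 counts per library.

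Other genes of the pathway were read from lists of DP partners, related E2Fs, corepressors and upstream kinases. Of 20 listed, 19 could be tested, and 0 were called with or without the replicate block, against 0% and 1.24% of all genes. Their median log2 fold change was 0.06, against -0.00067 over all tested genes, with 14 positive and 5 negative. The DP partner genes Tfdp1 and Tfdp2 had 0.09 ± 0.19 and 0.10 ± 0.20, and the corepressor gene Sin3b, known to work with DREAM, 0.09 ± 0.20. Genes that act with MuvB after the pocket proteins leave were low. Mybl2, which encodes B-MYB, averaged 5.01 ± 1.80 CPM in G1 and 4.05 ± 2.28 CPM in G0 (SD, n = 4 each), with a log2 fold change of 0.33 ± 0.45, and Foxm1 had -0.18 ± 0.43. Among the E2Fs, the activator gene E2f1 had 0.57 ± 0.52, and the atypical repressor genes E2f7 and E2f8 had -0.64 ± 0.50 and 0.85 ± 0.80. Lats1, a Hippo pathway kinase gene, had -0.36 ± 0.22, and Lats2, whose kinase acts upstream of DYRK1A, 0.01 ± 0.23.

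Of 12 genes for cyclins and kinases that phosphorylate pocket proteins and for phosphatase subunits that can reverse it, 0 were called without the block and 2 with it, Ccnd2 and Ccnd1, both higher in G1, against 0% and 1.24% of all genes. Ccnd2 had a blocked log2 fold change of 0.73 ± 0.11 (edgeR adjusted p = 0.00041) and Ccnd1 one of 0.87 ± 0.19 (edgeR adjusted p = 0.018). Their partner kinase genes Cdk4 and Cdk6 had 0.28 ± 0.18 and -0.02 ± 0.24 in the fit without the block, and the cyclin E genes Ccne1 and Ccne2 had 0.21 ± 0.71 and 0.36 ± 0.32. The 4 phosphatase genes, Ppp2ca, Ppp2cb, Ppp2r1a and Ppp2r2a, had values from -0.05 to 0.05. Ccnd1 and Ccnd2 were higher in G1 in all 4 runs, and the groups overlapped for Ccnd1 but not for Ccnd2. The other cyclin D gene, Ccnd3, averaged 119.4 CPM in G1 and 107.7 CPM in G0. It had 0.15 ± 0.19 in the fit without the block, was higher in G1 in 3 of 4 runs and was called in neither fit. Over all tested genes, 20.8% had the same sign in all runs, and 0.829% had groups without overlap and higher in G1. In a single set of simulated counts, drawn with the blocked fit's own dispersions, a larger share of that fit's calls was false than its adjusted threshold aims at. That bears on both calls.

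Known targets of DREAM in the G1/S group, mostly DNA replication genes, had 30 of 34 members tested and 0 called with or without the block, against 0% and 1.24% of all genes. Their median log2 fold change was 0.08 (20 positive and 10 negative), and their summed level was 667 to 810 CPM in G1 libraries and 648 to 762 CPM in G0 libraries, higher in G1 in 2 of 4 runs. The smallest p belonged to Tyms, thymidylate synthase. Its level was 7.94, 7.44, 9.90 and 11.7 CPM in G1 libraries of runs 1 to 4, against 7.26, 6.17, 4.73 and 6.25 CPM in G0 libraries. The groups did not overlap, as for 0.829% of all tested genes with G1 higher, but the log2 fold change of 0.59 ± 0.27 did not pass. Uhrf1, Dut and Rrm2 followed, at 0.72 ± 0.35, 0.56 ± 0.27 and 0.60 ± 0.34. In Uhrf1 and Rrm2 the largest G1 values, 14.5 and 10.9 CPM, were those of run 4.

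Targets of the G2/M group, genes of mitosis, were led by the cyclin A gene Ccna2, which averaged 13.2 ± 2.87 CPM in G1 and 10.4 ± 3.44 CPM in G0, and the kinesin gene Kif20a, which averaged 12.5 ± 2.24 CPM in G1 and 12.1 ± 3.31 CPM in G0 (SD, n = 4 each). Kif20a is named here for its level, after its values were seen. Exons of other genes that overlap a gene were looked up for the members only, not for these targets. Of 36 listed, 19 could be tested, and the 17 others averaged at most 1.20 CPM in G1 and 0.99 CPM in G0. None of the 19 was called with or without the block, against 0% of all genes without it and 1.24% with it, and the median log2 fold change was 0.20 (12 positive and 7 negative). The summed level was 64.9 to 137.1 CPM in G1 libraries and 51.6 to 115.4 CPM in G0 libraries, higher in G1 in all 4 runs though the groups overlapped. Bub1b, a spindle checkpoint gene, had the smallest p, with 0.92 ± 0.44, followed by the phosphatase gene Cdc25b at -0.67 ± 0.52, Racgap1 at 0.74 ± 0.59 and Ccna2 at 0.34 ± 0.29. Cdk1, whose promoter is shown above, stood at 0.283, 0.997, 2.25 and 7.02 CPM in G1 libraries of runs 1 to 4, against 0.0907, 0.0895, 1.91 and 2.68 CPM in G0 libraries. These come from only 4, 13, 22 and 47 counts in G1 and 1, 1, 27 and 15 counts in G0. Cdk1 was higher in G1 within each run, yet the runs differed more than the phases, and the log2 fold change was 1.16 ± 1.11 (95% interval -1.29 to 3.60).

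**Figure D5:**
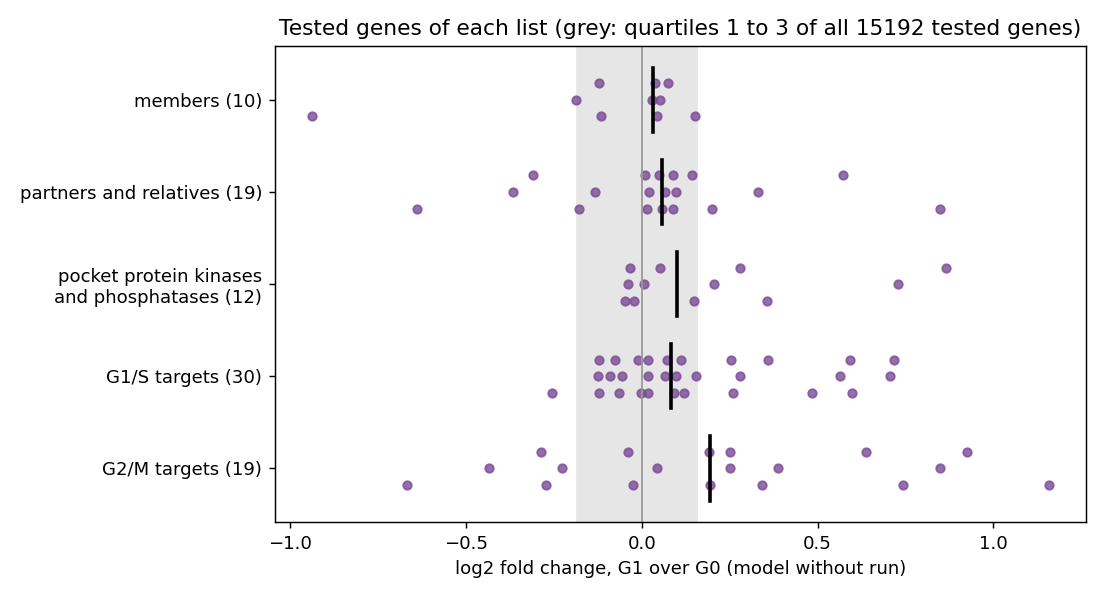
Log2 fold change, G1 over G0, of the tested genes in each list from the model without the run, with 1 point per gene, offset vertically to be seen, a black line at each list's median and a grey band between the lower and upper quartiles of all 15192 tested genes (-0.18 to 0.16). The medians run from 0.03 for the 10 members to 0.20 for the 19 tested G2/M targets, and Lin9 is the lowest member at -0.94.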

How the data were processed

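Polyadenylated RNA was made into stranded libraries and read as pairs on an Illumina HiSeq, per the labels' protocols. The submitters' processing notes name Trimmomatic 0.35, STAR 2.5.2a and the mm10 build; how reads were counted, and whether by strand, is not given in the sources used here. As deposited, the values are raw, whole counts for each Ensembl gene. Symbols, positions and exon lengths are from GENCODE M21 (54808 identifiers matched).

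Counts were tested with edgeR 4.0.16 (R 4.3.3; TMM, filterByExpr, robust quasi-likelihood fit, phase as the only term, Benjamini-Hochberg 0.05). Log2 CPM used a prior count of 2. Each standard error is |log2 fold change| / √F. The fits were tested on a single set of simulated counts with known changes, drawn with the blocked fit's dispersions. There the blocked fit made more false calls than its threshold aims at and the fit without the block made none. The share of true changes that each fit found is not given here, so the fits are not ranked. Libraries of a phase gave a chi-square per degree of freedom of 21.7 to 95.1 against sampling noise alone, so none was a copy. The labels do not say whether runs were separate animals, so p-values measure only the spread between these samples.

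Run numbers in the titles pair the libraries: deviations from the phase mean correlated at 0.668, 0.470, 0.638 and 0.437 within runs 1 to 4 and at most at 0.0971 between runs. Results with the run added to the model (replicate block) are therefore given too.

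Members, lists and tests were chosen with earlier results of these data known. All 10 members are named, with listed pathway genes, the 4 target genes of smallest p per target list and the 3 nearest profiles of Rbl1, Rbl2 and E2f4. Alternatives were RLE factors, other filters, DESeq2 1.42.0, limma-voom (limma 3.58.1), the block and each library or run left out.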

Additional observations from a re-analysis of the deposited data

How the results depend on the processing

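No member was called under any of the 18 alternatives, and the lowest adjusted p among their 180 values was 0.123, for Lin9 with edgeR and the replicate block. Of these values, 158 kept the direction of the fit without the block and 22 did not; Lin9, E2f5 and Dyrk1a kept theirs throughout. Calls over all genes were 0 higher and 0 lower in G1 in that fit, and 14 and 73 with no low-count filter, 10 and 24 with DESeq2, and 73 and 116 with the replicate block; the cause was not tested. With the block and run 1, 2, 3 or 4 left out, the calls were 99, 63, 73 and 21 higher and 175, 90, 144 and 76 lower. The block changed the call of no member.

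The values that turned round were small and none passed. With limma-voom, Lin37 was at -0.0093. With 1 library left out, the log2 fold changes ranged from -0.16 to 0.17 for Rbl1, -0.032 to 0.16 for Rbl2, -0.011 to 0.14 for E2f4, -0.17 to 0.30 for Lin37, -0.36 to 0.015 for Lin52, -0.34 to 0.085 for Lin54 and -0.083 to 0.35 for Rbbp4. With the replicate block, Rbl1 was at -0.17 without run 1 and -0.042 without run 2, Rbl2 at -0.035 without run 2, Lin52 at 0.045 without run 1 and 0.011 without run 3, Lin54 at 0.040 without run 3, and Lin37 and Rbbp4 at -0.077 and -0.032 without run 4. For the log2 ratios with 1 library left out, Rbl1/Rbl2 ranged from -0.12 to 0.029 and Rbbp4/Rbbp7 from -0.17 to 0.18. With runs paired by exact sign flips, the replicate block of a ratio, the smallest possible p was 0.125, and Rbl1/Rbl2 gave p = 0.75.

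Counts limit the low members most, since Rbl1, Lin9 and Lin52 had between 21 and 139 counts per library.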
